A study of Homo sapiens with 6 samples.

Results

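The sites described here are stretches of the K562 genome that had no called peak of open chromatin before treatment, had one after 6 h of phorbol ester, and still had one after 72 h. They were chosen by peak calls: a site of the authors' table was taken if it overlapped by at least 1 base a peak in both 6 h libraries and both 72 h libraries, and in neither 0 h library. This rule selected 13302 of 181135 sites (7.34%), called members below. K562 is a human cell line from a chronic myelogenous leukaemia. Wild-type cells received 25 nM PMA (phorbol 12-myristate 13-acetate), given to drive them towards a megakaryocyte-like state, for 0, 6 or 72 h, with the medium changed at 24 h and 48 h. Each time had 2 libraries, and the labels do not say whether these came from separate cultures, so p-values measure only the spread between these samples. No library was grown alongside with vehicle for 6 h or 72 h, so time in culture and PMA cannot be told apart.

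In ATAC-seq a transposase cuts accessible DNA, so more reads fall where chromatin is more open. PMA mimics diacylglycerol and activates protein kinase C, which signals through MAP kinases to transcription factors of the AP-1 family. AP-1 is a dimer of Fos, Jun and related proteins that binds the letters TGANTCA, where N is any base. In K562, phorbol ester is a classical inducer of megakaryocytic features such as adhesion and spreading.

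Counts in sites ranged from 12258890 to 35548737 per library, and 6 h replicate 1 was the shallowest. Its peak list decided much of the number of members: another 12698 sites had a peak in 6 h replicate 2 and both 72 h libraries only, and without the demand on 6 h replicate 1 there would be 26000 members. As a check of the cells, 8 of 8 erythroid or K562 marker genes had a peak at a gene end in both 0 h libraries, but so did 4 of 6 markers of other blood cells, so this check did not tell the cell types apart.

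Few members lay at gene starts, but those that did can be read as sequence. RefSeq promoter windows (250 bases before to 50 after an annotated start, GRCh38.p14) were covered for at least 150 bases by 269 members, giving 291 windows. The AP-1 letters TGANTCA, which read the same on both strands apart from N, stood in 137 of these 291 windows (47.1%), against 7.71% of the 35116 RefSeq windows of the table used. The sequences below are the parts of such windows upstream of the start, from strongly covered protein-coding genes, 5′ to 3′ on the gene's strand, with the match in capitals. The EMP1 window holds another match upstream of the start that is outside the stretch printed.
MSANTD3, chr9:100429422-100429542, plus strand: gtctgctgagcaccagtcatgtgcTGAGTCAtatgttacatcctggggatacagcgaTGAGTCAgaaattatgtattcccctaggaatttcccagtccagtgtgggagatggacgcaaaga
TRIM54, chr2:27282235-27282355, plus strand: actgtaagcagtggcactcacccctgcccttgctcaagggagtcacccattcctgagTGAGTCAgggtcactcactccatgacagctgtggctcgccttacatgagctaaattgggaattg
NDST1, chr5:150497675-150497778, plus strand: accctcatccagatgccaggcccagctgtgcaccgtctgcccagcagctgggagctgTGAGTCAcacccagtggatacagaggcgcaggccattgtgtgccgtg
DHRS9, chr2:169069458-169069562, plus strand: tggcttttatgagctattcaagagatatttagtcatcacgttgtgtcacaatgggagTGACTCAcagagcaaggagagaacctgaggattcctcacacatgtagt
EMP1, chr12:13196621-13196725, plus strand: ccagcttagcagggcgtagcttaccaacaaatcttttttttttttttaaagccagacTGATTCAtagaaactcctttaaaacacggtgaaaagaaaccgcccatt
PLAUR, chr19:43670292-43670412, minus strand: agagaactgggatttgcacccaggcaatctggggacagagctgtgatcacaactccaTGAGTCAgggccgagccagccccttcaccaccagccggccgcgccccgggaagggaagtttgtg
At the MSANTD3 window, with 2 matches, the site had 4.48 and 4.97 CPM (counts relative to the TMM-scaled library size) at 0 h, 26.3 and 22.7 at 6 h, then 16.5 and 19.8 at 72 h. The TRIM54 site had 2.21 and 3.35 CPM at 0 h, 17 and 23.3 at 6 h, then 20.2 and 23.5 at 72 h. The EMP1 site, at the start of an epithelial membrane protein gene, went from 0.65 and 1.2 CPM at 0 h to 13.1 and 17.7 at 6 h and 14.3 and 15.5 at 72 h. In these 3 sites both PMA times lay above both 0 h libraries. The PLAUR site, at the urokinase receptor gene, showed how little the level may differ at a member: it had 8.32 and 10.4 CPM at 0 h, 14.5 and 12.5 at 6 h, then 7.77 and 7.72 at 72 h, so the 72 h libraries lay below both 0 h libraries.

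Not every covered window held the letters. In 2 others, shown as examples, no match was found in the window.
TAPBP, chr6:33314079-33314198, minus strand: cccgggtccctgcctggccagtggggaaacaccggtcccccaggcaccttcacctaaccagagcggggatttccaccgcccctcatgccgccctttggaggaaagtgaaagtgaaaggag
CD63, chr12:55727901-55728020, minus strand: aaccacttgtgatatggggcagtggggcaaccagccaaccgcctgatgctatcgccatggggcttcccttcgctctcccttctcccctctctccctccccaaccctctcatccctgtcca
The TAPBP site had 16 and 18.5 CPM at 0 h, 17.7 and 22.3 at 6 h, then 10.4 and 11.6 at 72 h. The CD63 site, at the gene of a tetraspanin of lysosomes and platelet granules, had 12.8 and 9.75 at 0 h, 18 and 20.9 at 6 h, then 13.5 and 18.3 at 72 h. Both had high levels before treatment without a called 0 h peak. Levels were not compared over all windows with and without a match, so these examples do not link the letters to opening.

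The AP-1 share differed between peak patterns. It was 28.5% of 221 windows at sites with peaks in 6 h replicate 2 and the 2 libraries of 72 h only, 25.2% of 473 windows at sites that had only the 2 peaks of 72 h, 11.6% of 147 windows at sites with no peak, and 4.95% of 14454 windows at sites with peaks in all 6 libraries. Among members it was 43.8% at protein-coding windows and 50.7% at lncRNA windows. Base composition differed too, with a median GC content of 53.3% in members' windows against 58.7% in all windows. Among windows between the quartiles of the members' GC content, the share was 49.0% for members and 9.93% for all windows. Other motifs searched by letters on both strands stood in shares closer to the whole: a CRE motif (TGACGTCA) in 1.72% against 1.85%, a GATA motif (AGATAA) in 10.7% against 10.3%, and a RUNX motif (TGTGGT) in 18.6% against 13.1%. An ETS motif (CCGGAA, 8.25% against 17.2%) and a GC box (GGGCGG, 25.1% against 45%) were rarer in members' windows. This was not particular to members: at sites that had only the 2 peaks of 72 h the shares were 10.4% and 22.4%. Among windows between the quartiles of the members' GC content the differences were smaller. There the ETS shares were 10.6% for members and 15.9% for all windows, and the GC box shares 19.2% and 27.1%. The distance of a match to the peak summit was similar for AP-1, GATA and RUNX: in 72 h replicate 2 the median distance was 158 bases for AP-1, 134.5 for GATA and 157 for RUNX, and in 6 h replicate 2 it was 141, 155.5 and 149. Windows of neighbouring starts overlap, and these shares are descriptions with no test.

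The members' levels at 0 h, 6 h and 72 h were used by the rule and are given only as a description. The median member had 1.3 and 1.34 CPM at 0 h, 5.12 and 5.28 at 6 h, then 5.49 and 5.85 at 72 h. Members together held 1.9% and 1.92% of all counts at 0 h, 8.42% and 8.77% at 6 h, then 11% and 11.4% at 72 h. A missing peak was not a missing signal: no member had 0 counts in both 0 h libraries, 90 members had a 0 h mean above their 6 h mean, and 462 had a 0 h mean above their 72 h mean. In 1753 members the 6 h mean was less than 1 on the log2 scale above the 0 h mean. The same held for the 72 h mean in 2315 members. Members just inside the rule had a weakest peak −log10 q of 2.35 to 2.76, such as a site near KRT6B with 1.3 and 1.53 CPM at 0 h, 1.88 and 3.42 at 6 h, then 9.14 and 10.2 at 72 h. Just outside was a site near GNAZ that lacked only the peak in 6 h replicate 1, with 9.55 and 7.65, 11.8 and 17.2, and 57.9 and 71.6 CPM. The median distance between a member's summits at 6 h and at 72 h was 41 to 67 bases over the 4 pairs of libraries, against 34 bases between the 72 h replicates and 61 between the 6 h replicates. At sites with peaks in all 6 libraries the cross-time medians were smaller, 30 to 47 bases.

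Between 6 h and 72 h the members divided. By edgeR's quasi-likelihood test with Benjamini-Hochberg adjustment over 177759 sites, at an adjusted p under 0.05, 2522 of 13300 tested members rose (19%) and 2403 fell (18.1%), while 8375 were not called. The background was 22.1% of all tested sites higher and 20.9% lower, so the members' shares were near it and say nothing particular about them. In 2520 of the rising and 2394 of the falling members, the 6 h and 72 h libraries did not overlap (18.9% and 18% of tested members, against 22% and 20.8% of all tested sites). The median log2 fold change was −0.03 in members and 0.03 in all tested sites, with members' quartiles at −0.49 and 0.49. A change above 1 on the log2 scale was seen in 1274 rising and 877 falling members (9.58% and 6.59%), against 18.9% and 10.8% of all tested sites, so large changes were a smaller share of the members. The rule demands a peak at both times. Members also had higher levels, with 6 h medians of 5.12 and 5.28 CPM against 1.88 and 1.77 in all tested sites. Whether either narrowed the members' changes was not tested. Sites chosen by peaks at 1 time alone have a direction largely set by that choice. Of sites that had only the 2 peaks of 72 h, 62.9% rose and 0.201% fell. Of the 456 tested sites that had only the 2 peaks of 6 h, 0% rose and 83.1% fell.

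The balance of rising and falling depended on the scaling of the libraries. With total counts 4539 members rose (34.1%) and 918 fell (6.9%), against 32.1% and 11.5% of all tested sites. With TMM factors computed on the sites open in all 6 libraries, 6709 rose (50.4%) and 321 fell (2.41%), against 43.4% and 5.23% of all tested sites. The median log2 fold change of all sites was 0.39 and 0.70 under these scalings. Under all 5 scalings, 2085 members rose and 320 fell, a count that was not made over all tested sites. All tested sites also shifted towards rises with total counts and with those TMM factors. The balance of this count is therefore not read as particular to members. Which members were called also depended on the libraries kept. Leaving out 1 library of a group left a single library there, so only the median log2 fold change is given. It ran from −0.03 to 0.06 in members and from 0.03 to 0.08 in all tested sites.

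**Figure D1:**
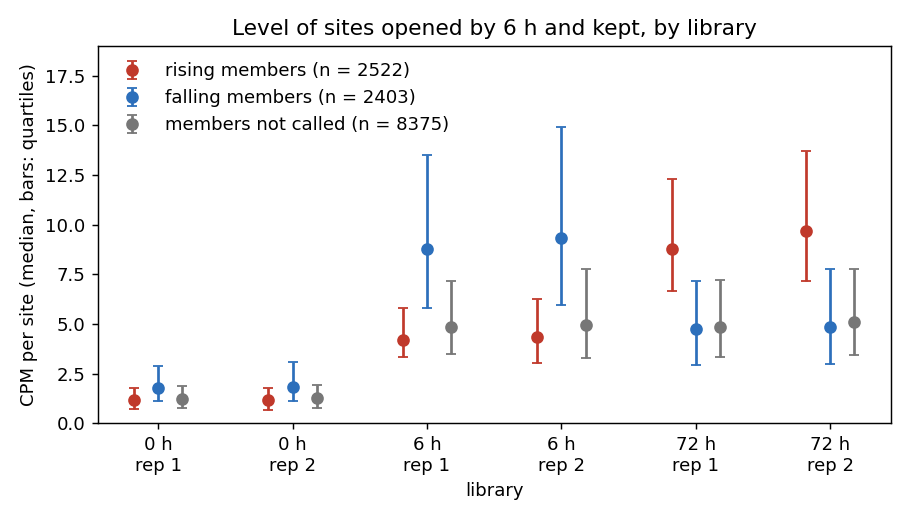
CPM per site in each library (points, medians; bars, quartiles) for members that rose, fell or were not called between 6 h and 72 h, classes that rest on these same libraries. Rising members had medians of 4.18 and 4.34 CPM at 6 h and 8.78 and 9.66 at 72 h, and falling members had 8.78 and 9.33 at 6 h and 4.74 and 4.84 at 72 h.

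**Figure D2:**
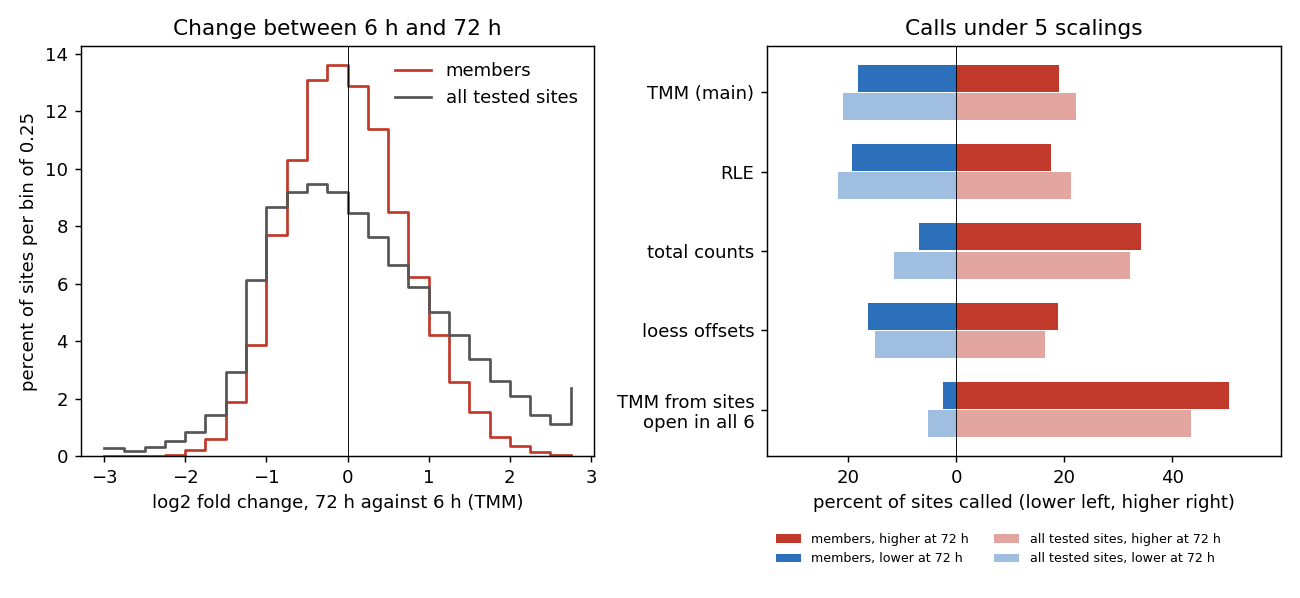
Left, share of sites by log2 fold change of 72 h against 6 h in bins of 0.25, with all larger changes in the end bins, for members and all tested sites. Right, percent of sites called lower (left of 0) and higher (right of 0) under 5 scalings. Members had a median of −0.03 and spread less than all sites, and their rising share ran from 17.6% with RLE factors to 50.4% with TMM factors from sites open in all 6 libraries. The shares of all tested sites under these 2 scalings were 21.2% and 43.4%.

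The 10 members with the largest rise after 6 h (mean of at least 2 CPM) were called in all 14 alternative settings run. The site 19426 bases from CYP24A1, the enzyme that inactivates vitamin D (chr20:54123294-54124112), had 1.36 and 2.25 CPM at 0 h, 3.67 and 2.75 at 6 h, then 20.4 and 25.8 at 72 h (log2 fold change 2.89, SE 0.25, adjusted p = 1.1e-07, edgeR). A site inside BACE2, an aspartyl protease gene (chr21:41227572-41228523), had 1.95 and 1.29, then 2.9 and 5.03, then 28.2 and 30.5 CPM (2.82, SE 0.24). At both sites the 6 h libraries lay above the 0 h libraries, and most of the gain came after 6 h. A site inside FHOD3, a formin gene of actin assembly, rose by 2.80 on the log2 scale, from 4.09 and 3.77 CPM at 6 h to 24.1 and 30.2 at 72 h. A site inside TRIO, a guanine nucleotide exchange factor gene, also rose by 2.80, from 4.01 and 5.54 to 32.2 and 36.1 CPM. A site inside BPGM, the red cell bisphosphoglycerate mutase gene, rose by 2.73 from 3.16 and 2.5 to 15.6 and 21 CPM. The other five lay inside DHRS9 and POU2F3, within 50000 bases of XCL2 and POTEB2, and 621717 bases from GFRA2, the nearest gene, with changes of 2.46 to 2.59.

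The 10 largest falls were called in all 14 settings too. The largest, inside MAPRE2, a gene of a microtubule end-binding protein (chr18:35106180-35107265), had 5.07 and 3.44 CPM at 0 h, 16.4 and 19.4 at 6 h, then 4.01 and 2.41 at 72 h (log2 fold change −2.49, SE 0.26, adjusted p = 4.6e-07, edgeR). Its 72 h libraries overlapped the 0 h range although a peak was still called at 72 h. A site inside FYB1, an adaptor gene of T cells and platelets, had 3.31 and 4.21, then 8.1 and 11.9, then 2.05 and 2.27 CPM, so it ended below both 0 h libraries. A site 28431 bases from USP12, a deubiquitinase gene, had 0.975 and 1.53, then 26.2 and 22.5, then 5.38 and 6.61 CPM (−2.01), and kept part of its gain. A site inside SLC60A2 had 2.4 and 2.25, then 20.8 and 21.3, then 5.1 and 5.55 CPM (−1.98). The other six lay 1051 bases from C15orf61, 148291 bases from KRR1, the nearest gene, and inside MCPH1, RELN, SART1 and CLDN9.

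DHRS9, a short-chain dehydrogenase gene, held both directions. The site at its promoter window printed above lay inside the gene, 2097 bases from the gene's end. It had 1.62 and 3.87 CPM at 0 h, 27.5 and 16.5 at 6 h, then 7.56 and 7.27 at 72 h (−1.55, SE 0.26, adjusted p = 8e-05, edgeR). The other site inside the gene (chr2:169086620-169087601) had 1.3 and 1.63, then 3.07 and 2.53, then 14.8 and 16.4 CPM (2.51, SE 0.24). Each kept its call under all 14 settings.

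**Figure D3:**
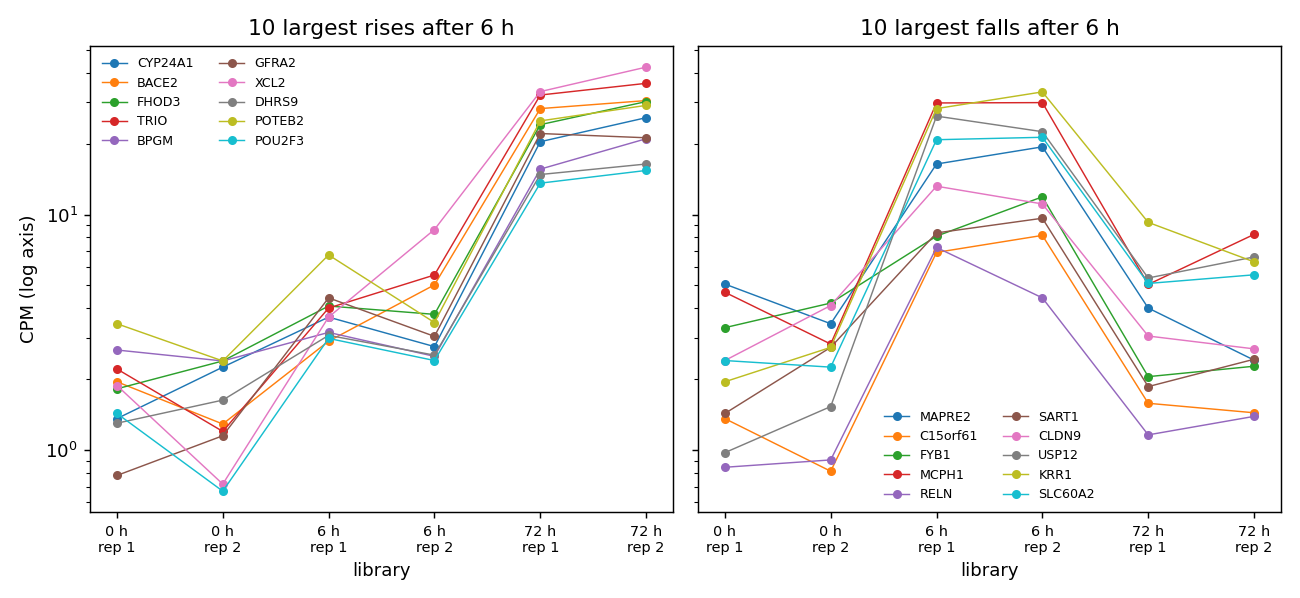
CPM in each library (log axis) for the 10 largest rises and the 10 largest falls after 6 h, named by the gene they are in or nearest to. At rising sites the 72 h points stood above all others, and at falling sites the 6 h points stood above all others.

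The strongest members by mean CPM were partly in repeated or amplified DNA. The strongest (chr21:8213849-8214223) overlaps a 28S ribosomal RNA gene, RNA28SN2, and had 230 and 151 CPM at 0 h, above 113 and 98.5 at 6 h and 104 and 78.7 at 72 h, so a 0 h peak was missing despite more counts. Reads of near-identical ribosomal copies cannot be assigned to this copy. The sites in FIBCD1, near LAMC3 and in BCR lie in the parts of chromosomes 9 and 22 around the BCR-ABL1 fusion, which K562 carries in extra copies, and counts were not corrected for copy number. The LAMC3 site rose from 27 and 30.9 CPM at 6 h to 84.8 and 112 at 72 h (log2 fold change 1.76, SE 0.16), and the FIBCD1 site from 71 and 71.4 to 110 and 108 (0.61, SE 0.13). In contrast, the site 5249 bases from ZNF212 had 4.68 and 4.3 CPM at 0 h, 119 and 116 at 6 h, then 38.5 and 50.5 at 72 h (−1.40, SE 0.15).

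Members were seldom at gene ends. Of the 13269 members on chromosomes with annotated genes, 620 (4.67%) were no farther than 1000 bases from a protein-coding gene's end, against 10.7% of all sites, 31.5% of sites with peaks in all 6 libraries and 3.5% of sites that had only the 2 peaks of 72 h. The median distance was 24237 bases in members, 21653 in all sites and 34089 in sites with 72 h peaks only. Inside a gene lay 53.3% of members, and 17.5% were more than 50000 bases from any gene. Of the 468 members at a gene end of known strand, 224 (47.9%) were at the start, against 75.5% of all tested sites at an end.

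Falling members lay nearer to gene ends than rising members. Within 1000 bases of an end were 7.66% of falling and 2.99% of rising members, and the median distances were 16317 and 34038 bases. This order held in the main setting and all 14 alternatives, with 6.09% to 9.45% of falling and 2.7% to 3.56% of rising members at an end. It is not particular to the members: over all tested sites 31.4% of falling and 3.14% of rising sites were at an end.

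**Figure D4:**
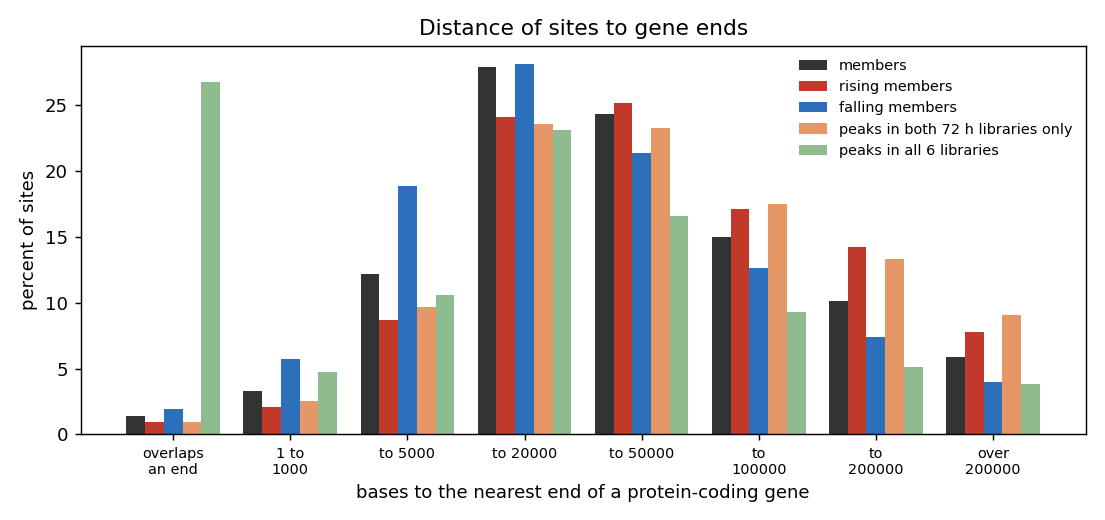
Percent of sites by distance in bases to the nearest protein-coding gene end, for members, rising and falling members, and sites with 72 h peaks only or with peaks in all 6 libraries. Few members overlapped or lay within 1000 bases of an end, 4.67% in all against 31.5% of sites with peaks in all 6 libraries.

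Members were spread over many genes. A member inside a gene, or within 50000 bases of the nearest one, was assigned to it, which placed 10951 members at 6381 protein-coding genes, of which 3962 had a single member and 249 had at least 5. The 20 genes with most members held 219 (1.65%). Long genes collect sites, so each count is read beside the gene's tested sites, of which 7.48% were members over the whole genome. KAZN, a gene of a desmosome-associated protein, had 17 members of 158 sites (10.8%), and CAMTA1, a calmodulin-binding transcription activator gene, had 16 of 136 (11.8%). BACH2, a gene of a repressor of the AP-1-like bZIP class, had 14 of 80 (17.5%), and the zinc finger gene HIVEP3 had 13 of 78 (16.7%). KIAA1549L had 9 of 27 (33.3%), the highest share of the 20 genes. By nearest gene end alone, 2 of the 20 stayed among the top 20.

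By counts of called members, the genes differed in direction after 6 h. Calls over all tested sites of each gene were not counted, so these directions may not be particular to members. Over the whole genome 22.1% of tested sites were higher and 20.9% lower. In CAMTA1, 8 members rose and 0 fell, and under the scaling from sites open in all 6 libraries 14 rose and 0 fell. Its strongest member (chr1:7526305-7527740) had 2.34 and 1.53 CPM at 0 h, 11.3 and 18.8 at 6 h, then 44.9 and 50.9 at 72 h (log2 fold change 1.64, SE 0.20). In PTPRN2, a gene of a receptor-type phosphatase family protein, 6 of 10 members rose and 0 fell, and in GRIK4, a kainate receptor gene, 6 of 9 rose and 0 fell. In KIAA1549L, 6 rose and 1 fell. In NEDD4L, an E3 ubiquitin ligase gene, 7 of 11 fell and 0 rose, in the Notch coactivator gene MAML2 5 of 9 fell and 0 rose, and in the kinase gene TNIK 5 of 9 fell and 0 rose. These falls depended on scaling: with factors from sites open in all 6 libraries, NEDD4L had 0 falling and 1 rising, MAML2 had 0 and 1, and TNIK had 1 and 1.

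HIVEP3 held both kinds. Its strongest member (chr1:41743269-41744365) had 1.1 and 1.05 CPM at 0 h, 48.9 and 53 at 6 h, then 24.5 and 26 at 72 h (−1.01, SE 0.15), and a site at chr1:41678233-41679174 had 2.08 and 2.1, then 6.99 and 9.24, then 26.9 and 30.2 CPM (1.79, SE 0.20). Both calls held in all 14 settings, so members of the same gene moved in opposite directions.

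The strongest BACH2 member (chr6:90135528-90136369) had 2.66 and 3.25 CPM at 0 h, 14.8 and 19.6 at 6 h, then 17.4 and 17.8 at 72 h, with no call. MICAL2, a gene of an actin-oxidising enzyme, had 11 members, of which 1 rose and 5 fell (4 and 1 with factors from sites open in all 6 libraries). Its strongest member was at 14.9 and 24.2 CPM at 6 h and 16.7 and 18.4 at 72 h, with no call. The rising site (chr11:12138077-12138875) went from 5.54 and 12.5 to 17.5 and 23.8 CPM (1.14, SE 0.26). A falling site (chr11:12207253-12207905) went from 0.39 and 0.382 CPM at 0 h to 15.6 and 13 at 6 h, then 5.15 and 5.45 at 72 h (−1.42, SE 0.22). The calls at both sites held in all 14 settings. The strongest FOXP1 member (chr3:71100205-71101522), in a forkhead transcription factor gene, fell from 11.3 and 11.7 CPM at 6 h to 5.13 and 7.03 at 72 h (−0.92, SE 0.23), and was called in 12 of 14 settings. The strongest NAV2 member was at 22.7 and 21.3 CPM at 6 h and 15.4 and 16.9 at 72 h, with an adjusted p of 0.052 (edgeR), although 4 other NAV2 members rose. With RLE factors 4 rose and 1 fell, and with factors from sites open in all 6 libraries 10 rose and 0 fell.

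Ranked by share among genes with at least 20 tested sites, a ranking added after the data were seen, the order was another. APCDD1L had 8 members of 22 sites (36.4%), 1 rising and 4 falling (2 and 0 with factors from sites open in all 6 libraries). FASLG, the Fas ligand gene, had 6 of 21 (28.6%), 1 rising and 1 falling. ABLIM3, an actin-binding LIM protein gene, had 8 of 30 (26.7%), 2 rising and 1 falling, and 7 of its members stood in a single run. MAF, a gene of a large bZIP factor related to AP-1, had 6 of 23 (26.1%), 3 rising and 0 falling. GRAPL had 6 of 24 (25%), 0 rising and 5 falling, and with factors from sites open in all 6 libraries 0 of its members were called either way. For FASLG, ABLIM3 and MAF the same factors gave 4, 6 and 5 rising members and 0 falling. The shares of all these genes rest on few sites each, and calls over all their tested sites were not counted.

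**Figure D5:**
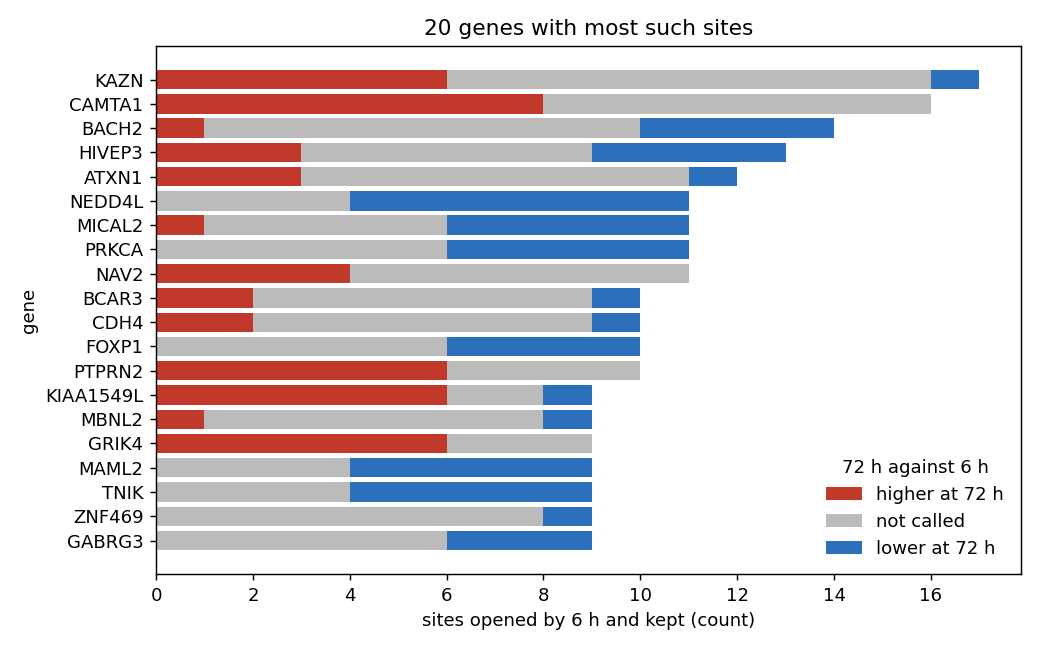
Number of members in each of the 20 genes with most members, split by the call for 72 h against 6 h. Calls over all tested sites of these genes were not counted. CAMTA1, NAV2, PTPRN2 and GRIK4 had rising and no falling members, and NEDD4L, PRKCA, FOXP1, MAML2, TNIK, ZNF469 and GABRG3 had falling and no rising members; under the scaling from sites open in all 6 libraries none of those 7 kept more falling than rising members.

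Gene lists, chosen with earlier results known, were counted by the same assignment, to be read against the 7.48% of tested sites that are members. The protein kinase C and MAPK feedback list had members at all 21 of its genes, 57 of 547 sites (10.4%). Among these 57, 9 rose and 16 fell, but 25 rose and 6 fell with total counts. PRKCA, the gene of protein kinase C alpha and a receptor of phorbol ester, had 11 members of 72 sites, of which 5 fell and 0 rose (0 and 1 with factors from sites open in all 6 libraries). Its strongest member (chr17:66514093-66514745) had 1.49 and 0.813 CPM at 0 h, 17.8 and 17.7 at 6 h, then 8.26 and 9.13 at 72 h (−1.03, SE 0.21). PRKCE, another kinase of this family, had 9 members of 74 sites, of which 3 rose and 0 fell. Its member at chr2:46073361-46074116 had 1.56 and 1.48, then 3.24 and 2.56, then 8.1 and 8.14 CPM (1.52, SE 0.26).

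Of megakaryocyte and platelet genes, 10 of 23 had a member, 23 of 223 sites (10.3%), with 4 rising and 2 falling (3 and 4 with loess offsets, 8 and 0 with factors from sites open in all 6 libraries). VWF, von Willebrand factor, had 5 members of 28 sites, and its strongest had 0.845 and 0.765 CPM at 0 h, 7.67 and 12.1 at 6 h, then 14 and 16.4 at 72 h (log2 fold change 0.59, SE 0.22, adjusted p = 0.039, edgeR). This call was made in 8 of 14 settings and was lost with RLE factors, with DESeq2, with thinning, and without 6 h replicate 1 or either 72 h replicate (adjusted p up to 0.32). RUNX1, a transcription factor of megakaryocytes, had 6 of 62, and its strongest was at 16.8 and 29.2 CPM at 6 h and 19.2 and 21.2 at 72 h, with no call. Integrin and adhesion genes had 27 members of 273 sites (9.89%), 5 rising and 5 falling, and with factors from sites open in all 6 libraries 15 rose and 2 fell. The strongest member of CD44, an adhesion receptor, had 0.26 and 0.622 CPM at 0 h, 25.1 and 24.5 at 6 h, then 8.67 and 8.92 at 72 h (−1.49, SE 0.20), a call made in all 14 settings.

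Actin cytoskeleton genes had 28 members of 283 sites (9.89%), with 0 rising and 7 falling. The direction turned with factors from sites open in all 6 libraries, where 7 rose and 1 fell, while RLE factors gave 0 and 8. AP-1 and immediate early genes had 8 members of 204 sites (3.92%), 2 rising and 4 falling, below the share of members among tested sites. The site 32023 bases from ATF3, an AP-1 family gene, had 1.69 and 1.77 CPM, then 7.25 and 8.51, then 20.4 and 20.7 (1.37, SE 0.20). Erythroid genes had 13 of 159 (8.18%), 0 rising and 4 falling, interleukin and chemokine genes had 13 of 149 (8.72%), 2 rising and 4 falling, and monocyte genes had 7 of 97 (7.22%), 1 rising and 4 falling. Housekeeping genes, listed as a control, had 5 of 85 (5.88%), 1 rising and 2 falling. With factors from sites open in all 6 libraries the rising and falling counts became 3 and 0 for AP-1 genes, 5 and 1 for erythroid genes, 5 and 0 for interleukin genes, 1 and 0 for monocyte genes and 2 and 1 for housekeeping genes, while with RLE factors they were 2 and 4, 0 and 4, 2 and 4, 1 and 4, and 1 and 2. Over all tested sites of these lists, falls were also more frequent than rises. There 22 were higher and 94 lower for actin genes, 31 and 93 for AP-1 genes, and 8 and 57 for erythroid genes. The counts were 43 and 48 for interleukin genes, 21 and 24 for monocyte genes, and 3 and 54 for housekeeping genes. The lists named earlier went the other way: 49 higher and 36 lower for megakaryocyte and platelet genes, 80 and 53 for integrin and adhesion genes, and 119 and 113 for the kinase list. The rises and falls among members are to be read beside these counts.

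Some members stood in runs, with gaps of at most 20000 bases: 44 runs had at least 5 members and held 239 members. The run at chr22:30195138-30271373 had 8 members among 24 sites around LIF and OSM, genes of cytokines of the interleukin 6 family, and HORMAD2, with 3 falling and 0 rising. A run of 8 among 21 sites at chr1:153490217-153578097 lay over the S100A calcium-binding protein genes, with 1 rising and 3 falling. Of neighbouring member pairs at most 5000 bases apart in which both were called, 118 of 122 moved the same way (96.7%), against 87.4% of such pairs of all tested sites. For gaps above 5000 and up to 20000 bases the shares were 82.8% and 80.7%, for gaps up to 100000 bases 71.5% and 74.4%, and farther apart 62.5% and 72.7%. Neighbours are not independent, so this is a description.

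In the authors' deposited table, the log2 fold change was above 0 in 13121 members at 6 h and in 12645 at 72 h, with medians of 1.79 and 1.85. These values come from the same libraries as the rule, which demands peaks at both PMA times and none at 0 h. Their sign is therefore largely set by the selection and is no separate support. The class names in the authors' deposited table did not follow the direction in members: 2040 carried a class that begins with "down", and all of them had log2 fold changes above 0 at both times. The class names were therefore not used.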

How the data were processed

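K562 ATAC-seq libraries of 0, 6 and 72 h of PMA (2 each) were analysed from the deposited counts per site, which are whole numbers and were taken as raw counts. Per the submitters' processing notes, Trim Galore 0.4.3, BWA 0.7.17, SAMtools 1.9, deepTools 3.0.1, MACS2, bedtools 2.26 and DESeq were used with hg38, and their settings and any shift of read ends are not given in the sources used here. The deposited table also holds the authors' log2 fold changes and adjusted p-values. The deposited peak lists, 1 per library, give the authors' score, fold enrichment and −log10 p and q, of which the −log10 q served to filter peaks.

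Counts were fitted with edgeR 4.0.16 in R 4.3.3 (TMM, default low-count filter, quasi-likelihood test, all 6 libraries, no covariate), which left 177759 sites and 13300 members, with DESeq2 1.42.0 as an alternative. Scripts were tested on simulated data. Sites were tied to protein-coding genes of RefSeq GRCh38.p14, coordinates are 1-based, and gene ends mean within 1000 bases. Named genes were the 20 with most members, the 10 strongest members, and the listed genes with their strongest site. The 10 largest rises and falls among called members with no overlap and at least 2 CPM were named too. Sites singled out in DHRS9, HIVEP3, MICAL2 and PRKCE, and the printed promoters, were added after their values were seen. Members and lists were chosen with earlier results of these data known. Motifs were planned for 300 bases around site centres but read in RefSeq promoter windows instead, since no genome was used here. The 617 members on chromosome 8 were not analysed here for promoter sequence. Alternatives were other scalings, filters, thresholds, thinning, a replicate block and leaving out each library.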

Additional observations from a re-analysis of the deposited data

How the results depend on the processing

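Changing the scaling moved the balance of rising and falling most. With total counts 4539 members rose, 918 fell and the median log2 fold change was 0.34. With TMM factors computed on the sites open in all 6 libraries these were 6709, 321 and 0.65. All tested sites moved too, to 32.1% higher and 11.5% lower with total counts, and 43.4% and 5.23% with those TMM factors. RLE factors, loess offsets, DESeq2, no low-count filter and thinning to the shallowest library kept both counts within 1.5 times. At an adjusted p under 0.01 and a log2 change above 1, 1253 rose and 805 fell, since fewer sites can pass. This stricter count was not made over all tested sites. Leaving out each library in turn gave 1304 to 3125 rising and 858 to 2825 falling members and a median of −0.029 to 0.0603. Without the demand on 6 h replicate 1 there were 26000 members, of which 6631 rose and 2892 fell. The shares of all tested sites stayed at 22.1% higher and 20.9% lower, since the fit was the same. A reach of 5000 bases put 16.9% of members at a gene end, and nearest gene ends kept 2 of the 20 top genes. With the whole promoter window inside the site, 54.7% held the AP-1 letters. The cause of the shifts with scaling was not tested. Of 700 values of 50 named sites across settings, 626 kept direction and call, 24 lost the call, 21 gained it in the same direction, and 24, at 9 sites, changed sign but were called in neither setting. The remaining 5 reversed: with loess offsets the ribosomal RNA site went to 1.12 and the SERPIND1 site to 0.07, and with factors from sites open in all 6 libraries the ribosomal RNA site went to 0.47, the strongest MICAL2 site to 0.49 and the strongest GABRG3 site to 0.16.

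With a replicate block 2772 members rose (20.8%) and 2615 fell (19.7%), against 22.7% and 22% of all tested sites. Deviations of same-numbered libraries correlated at 0.0533 to 0.0854, so the numbers were not taken to pair the samples. The motif search around summits was not run, since no genome was used here. 6 h replicate 1 was the shallowest library and lacked a peak at many sites with one in 6 h replicate 2, and the part of depth in this was not tested.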
